A study of Mus musculus with 26 samples.

Results

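The genes described here are 40 genes of the contractile apparatus of skeletal muscle, measured by RNA sequencing in mouse ears. They were chosen by name, from sarcomere, calcium handling and muscle energy genes, and not by a rule on their values. Earlier results of these data were known at that point. The count table holds 57010 genes, 40 of 40 members were found in it by gene identifier, and 40 of 40 were among the 20167 genes that passed the filter on low counts. By role they fall into 10 fast contractile genes, 5 slow contractile genes, 12 genes of the thin filament, titin, nebulin, the Z-disc and the M-band, 7 calcium handling genes and 6 genes of energy and oxygen supply.

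Ear tissue came from 26 mice in 4 groups, and each mouse gave 1 library. MC903+RGRN-305 (8 mice) received MC903, the vitamin D analog calcipotriol, which brings on a dermatitis resembling atopic dermatitis, and topical RGRN-305, an inhibitor of the chaperone HSP90. MC903+Dexamethasone (4 mice) received MC903 and topical dexamethasone, a glucocorticoid. MC903 (8 mice) received MC903 and the drug-vehicle, ethanol, and Vehicle (6 mice) received the vehicle of MC903 and the drug-vehicle. MC903 was put on the right ear at 1 nmol per day for 6 days, RGRN-305 was given at 1 mg per day and dexamethasone at 20 nmol per day, and a punch of 4 mm was taken from the ear on day 9. All mice were female wild-type Balb/cAnNRj mice, bought at 8 weeks of age. Each group is called by its drug below, so that MC903 ears are those that received no drug. The groups answer whether MC903 challenge changed the muscle genes of the ear, and how far they stood from the unchallenged level under each drug.

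Skeletal muscle contracts when myosin heads on the thick filament pull on actin in the thin filament, inside repeated units called sarcomeres that are bounded by Z-discs and held in register at the M-band. Calcium released from the sarcoplasmic reticulum binds troponin and opens the thin filament, and a calcium pump returns it. Fast and slow fibres use different genes for some parts, such as the heavy chain of myosin and subunits of troponin. For these parts the gene used points to the kind of fibre. A mouse ear holds thin auricular muscles beside its skin, cartilage and fat, and a punch of whole ear takes them along.

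The members are switched on together in muscle by factors such as MyoD, which binds E-boxes, and MEF2. The 250 bases before the start of the Ensembl canonical transcript in GENCODE are therefore shown for 5 members, in the GRCm39 build. Each is read 5′ to 3′ on the strand of its gene, and all 5 windows lie inside the annotated span of their gene. Myh4 and Myh1 are shown because dexamethasone ears stood near vehicle ears in them, and Casq1 and Pvalb because dexamethasone ears stayed below vehicle ears. Tnni1 is shown because its fitted fall under MC903 was the smallest. Capitals mark E-boxes (CANNTG) and matches to the MEF2 motif on either strand.
Myh4 (chr11:67131173-67131422, plus strand): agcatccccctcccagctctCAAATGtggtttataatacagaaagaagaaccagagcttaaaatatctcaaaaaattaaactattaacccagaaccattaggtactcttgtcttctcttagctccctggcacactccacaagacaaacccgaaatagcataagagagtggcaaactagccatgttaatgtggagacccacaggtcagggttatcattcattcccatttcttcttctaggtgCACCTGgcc
Myh1 (chr11:67090678-67090927, plus strand): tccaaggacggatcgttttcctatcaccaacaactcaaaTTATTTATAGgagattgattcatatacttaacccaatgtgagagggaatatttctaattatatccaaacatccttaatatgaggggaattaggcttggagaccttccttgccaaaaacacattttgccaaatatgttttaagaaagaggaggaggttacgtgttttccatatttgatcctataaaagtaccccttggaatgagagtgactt
Casq1 (chr1:172047753-172048002, minus strand): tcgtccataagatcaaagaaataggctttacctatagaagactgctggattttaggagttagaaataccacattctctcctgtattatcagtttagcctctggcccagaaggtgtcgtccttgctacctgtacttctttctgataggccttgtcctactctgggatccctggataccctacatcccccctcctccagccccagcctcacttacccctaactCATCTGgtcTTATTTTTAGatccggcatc
Pvalb (chr15:78090603-78090852, minus strand): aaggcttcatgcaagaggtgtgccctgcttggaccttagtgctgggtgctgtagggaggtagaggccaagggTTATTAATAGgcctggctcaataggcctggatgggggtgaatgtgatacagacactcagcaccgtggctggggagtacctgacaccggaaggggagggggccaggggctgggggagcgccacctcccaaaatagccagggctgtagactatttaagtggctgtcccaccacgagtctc
Tnni1 (chr1:135726890-135727139, plus strand): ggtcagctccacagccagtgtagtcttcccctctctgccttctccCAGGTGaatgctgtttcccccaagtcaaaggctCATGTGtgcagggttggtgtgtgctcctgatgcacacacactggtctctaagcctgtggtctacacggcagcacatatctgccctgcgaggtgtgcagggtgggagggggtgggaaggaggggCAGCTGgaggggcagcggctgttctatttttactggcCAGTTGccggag
An E-box was found in the windows of 32 of 40 members and in 64.8% of the windows of 21770 protein-coding genes. The MEF2 motif was found in 7 members (Ampd1, Casq1, Myh1, Myoz1, Pgam2, Pvalb and Xirp2) and in 2.79% of all windows. TATAAA was found in 7 members and 11.9% of all windows, the CArG box of SRF in 2 members and 1.40%, and AGAACA, part of the site bound by the glucocorticoid receptor, in 4 members and 14.3%. These counts cover both strands and describe letters in these windows, and no binding was measured.

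Total counts were 20020975 to 26516232 reads in RGRN-305 ears, 20625369 to 28838836 reads in dexamethasone ears, 14311046 to 28036747 reads in MC903 ears and 13695023 to 35130972 reads in vehicle ears, and the lowest were those of vehicle ear 2 and MC903 ear 7. The members took 0.0874 to 0.303% of the counts in RGRN-305 ears, 0.303 to 0.527% in dexamethasone ears, 0.0652 to 0.153% in MC903 ears and 0.505 to 1.13% in vehicle ears. Levels are CPM (each count set against the TMM-adjusted total of its library), with TMM factors of 0.952 to 1.05 in RGRN-305 ears, 0.920 to 0.946 in dexamethasone ears, 0.906 to 0.984 in MC903 ears and 1.12 to 1.15 in vehicle ears. Markers of other tissues in the ear also moved with the groups. Summed leukocyte markers (11 genes) were 188 to 337 CPM in RGRN-305 ears, 87.2 to 215 CPM in dexamethasone ears, 464 to 690.1 CPM in MC903 ears and 116 to 161 CPM in vehicle ears, and summed adipocyte markers (12 genes) were 372 to 551 CPM in RGRN-305 ears, 536 to 898 CPM in dexamethasone ears, 275 to 390.0 CPM in MC903 ears and 852 to 1321 CPM in vehicle ears. Summed cartilage markers (14 genes) were 216 to 316 CPM in RGRN-305 ears, 222 to 249.9 CPM in dexamethasone ears, 197 to 307 CPM in MC903 ears and 526 to 746 CPM in vehicle ears, and summed smooth muscle markers (10 genes) were 117 to 145 CPM in RGRN-305 ears, 141 to 155 CPM in dexamethasone ears, 119.6 to 161 CPM in MC903 ears and 154 to 252 CPM in vehicle ears. Summed keratinocyte markers (10 genes) were 46869.7 to 60138 CPM in RGRN-305 ears, 63989 to 71018 CPM in dexamethasone ears, 51061 to 65149 CPM in MC903 ears and 32826 to 40026 CPM in vehicle ears. No marker was at 0 in every ear. Mitochondrial genes took 2.60 to 2.89% of the counts in RGRN-305 ears, 2.30 to 2.70% in dexamethasone ears, 2.03 to 2.75% in MC903 ears and 2.90 to 3.24% in vehicle ears. The part of these markers and of the mitochondrial share in the results below was not tested. Of the 40 members, 29 overlap another annotated gene, 28 of them one on the opposite strand and 10 a protein-coding gene, so that reads may have been lost or shared there if counting ignored the strand, which is not given in the sources used here. In whole-ear RNA, fewer muscle fibres in a punch, less muscle RNA per fibre and more RNA from other tissue cannot be told apart.

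In vehicle ears the fast gene stood above its slow counterpart in the troponins and for Myh4 over Myh7, but not in myosin binding protein C. Per length (RPKM, the CPM divided by gene length in kilobases), the level of Acta1, skeletal alpha-actin, was the highest of the members at 315 ± 101 (SD, n = 6). It was followed by Tnnc2 at 279 ± 54.7, Atp2a1 at 214 ± 78.4 and Mb at 208 ± 52.1 RPKM, whose spreads overlapped. At the other end, the level of Myh7, the slow myosin heavy chain, was 0.557 ± 0.339 RPKM. The levels of Mybpc2, Ampd1 and Actn3 were 1.19 ± 1.43, 1.33 ± 0.508 and 1.36 ± 1.74 RPKM, and Mybpc2 and Actn3 are fast genes. The slow genes Mybpc1 and Tnnt1 stood at 50.9 ± 18.7 and 43.6 ± 15.5 RPKM. Among the heavy chains, Myh1 stood at 179 ± 90 RPKM, Myh4 at 35.7 ± 25.4, Myh3 at 31.5 ± 9.96 and Myh2 at 31.7 ± 10.8 RPKM, and the last 3 did not differ beyond their spread.

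The muscle genes fell together under MC903. In MC903 ears against vehicle ears, 40 of 40 members fell (edgeR, adjusted p below 0.05 over all genes tested), where 35.7% of all genes tested were lower. Their median log2 fold change was -2.41, against -0.022 over all genes, and the members ranged from -4.56 for Myh4 to -1.04 for Tnni1. A log2 fold change beyond 1.5, the further limit of the study, was met by 38 members, the exceptions being the slow troponins Tnnc1 (-1.13) and Tnni1, while 7.58% of all genes met it. In 39 members all 8 MC903 ears lay below all 6 vehicle ears, which was so for 21.1% of all genes, and Mybpc2 was the member whose groups overlapped.

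Under RGRN-305 most of the members were higher than in MC903 ears. In RGRN-305 ears against MC903 ears, 28 members rose, where 18.6% of all genes tested were higher, and 12 did not pass. Of these 28, 0 had a log2 fold change beyond 1.5, the further limit of the study, and 113 of all 20167 genes tested rose beyond it. All 40 fitted changes were above 0, with a median of 0.83 against 0.031 over all genes. The members that did not pass were Myh2, Myh4, Actn3, Mybpc2, Myh7, Tnnt1, Tnnc1, Des, Xirp2, Smpx, Pvalb and Ampd1. Of these, Myh2, Actn3, Xirp2 and Smpx passed with all ears in DESeq2 and with total counts without TMM (adjusted p up to 0.0491). Tnni1 was the 1 member whose RGRN-305 ears all lay above all MC903 ears, as did 3.57% of all genes. The count of members that rose was 24 to 32 when each mouse was left out in turn. The call of Acta1 was lost without MC903 ear 2, 3, 4, 6 or 7 or RGRN-305 ear 2, 5, 6, 7 or 8 (0.55 to 0.66, adjusted p up to 0.0814), and that of Trdn without MC903 ear 2, 4, 6 or 7 or RGRN-305 ear 2 or 8 (0.51 to 0.61, adjusted p up to 0.0759). Without RGRN-305 ear 8 the call of Ttn was lost (0.63, adjusted p = 0.0530), and without RGRN-305 ear 8 or MC903 ear 1 that of Jph1 (0.52 in each case, adjusted p up to 0.0532). Myh4 passed without MC903 ear 3 or ear 8 (1.84 to 2.02, adjusted p = 0.0288 to 0.0465), Xirp2 without RGRN-305 ear 3, 4 or 6 (0.56 to 0.63, adjusted p = 0.0110 to 0.0487), Smpx without MC903 ear 5 or RGRN-305 ear 3, 4 or 5 (0.70 to 0.78, adjusted p = 0.00779 to 0.0498) and Actn3 without RGRN-305 ear 7 (1.58, adjusted p = 0.0396).

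Most members were also higher under dexamethasone, by unequal amounts, and this comparison shares its MC903 ears with that of RGRN-305. In dexamethasone ears against MC903 ears, 32 members rose, where 23% of all genes tested were higher, with a median log2 fold change of 1.39 over the members against 0.002 over all genes. Of these, 19 also passed 1.5, as did 2.6% of all genes, and 29 had dexamethasone ears above all MC903 ears, as did 12.7% of all genes. The 8 that did not pass were Myl1, Tnnc2, Actn3, Mybpc2, Myh7, Tnnt1, Pvalb and Pgam2. The fitted changes of the members ran from 0.22 for Myl1 to 4.16 for Myh4. The count of members that rose was 29 to 34 with each mouse left out. The call of Casq1 was lost without MC903 ear 7 or dexamethasone ear 1 or 4 (0.60 to 0.67, adjusted p up to 0.0967), and those of Smpx (0.74 to 0.77, adjusted p up to 0.0859) and Trdn (0.68 to 0.76, adjusted p up to 0.0789) without dexamethasone ear 1 or 2.

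The drug groups also differed from each other. In RGRN-305 ears against dexamethasone ears, 21 members were lower and 0 higher, where 17.8% of all genes tested were lower and 17.6% higher. Without adjustment 1 member, Myl1, was higher at p below 0.05, and DESeq2 also called 0 higher. The median was -0.64, against 0.013 over all genes, and 3 members (Myh4, Atp2a1 and Ampd1) were lower by more than 1.5, as were 1.63% of all genes. In 13 members all RGRN-305 ears lay below all dexamethasone ears, which was so for 9.47% of all genes. The 6 members with a fitted change above 0 were Myl1, Tnnc2, Actn3, Pvalb, Casq1 and Pgam2, and none of these passed. The count of lower members was 15 to 22 when each mouse was left out in turn. Without dexamethasone ear 1 the calls of Des (-0.70, adjusted p = 0.0576), Eno3 (-0.64, adjusted p = 0.0677) and Tcap (-0.63, adjusted p = 0.117) were lost. The calls of Ckm (RGRN-305 ear 1, 3 or 6 or dexamethasone ear 1, 2 or 4, adjusted p up to 0.163), Jph1 (RGRN-305 ear 1, 3 or 4 or dexamethasone ear 1, 2 or 4, adjusted p up to 0.191) and Pygm (RGRN-305 ear 1, 3, 4 or 6 or dexamethasone ear 1, 2 or 4, adjusted p up to 0.208) were each lost without any 1 of the ears given. Tnnc1 passed without RGRN-305 ear 2 (-0.90, adjusted p = 0.00795).

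Set against vehicle ears, both treated groups still differed. In RGRN-305 ears 39 members were lower than in vehicle ears, where 29.5% of all genes tested were lower, with a median of -1.65 against 0.0014 over all genes. Of these, 25 were lower by more than 1.5, as were 4.03% of all genes. In 31 members all RGRN-305 ears lay below all vehicle ears, which was so for 14.8% of all genes. The exception was Tnni1, with a log2 fold change of 0.0016 ± 0.17 (adjusted p = 0.994). In dexamethasone ears 26 members were lower, where 29.4% of all genes tested were lower, and 1 was higher, where 26.4% were higher, with a median of -0.89 against -0.047 over all genes. The 1 higher member was Tnni1. The 13 that did not pass were Myh1, Myh2, Myh4, Tnnc1, Des, Tcap, Myot, Myoz1, Myom1, Myom2, Xirp2, Atp2a1 and Cacna1s, and missing the threshold does not show that they were at the vehicle level. The 6 members lower by more than 1.5 were Myl1, Actn3, Mybpc2, Myh7, Pvalb and Casq1, where 4.9% of all genes met that limit. In 14 members all dexamethasone ears lay below all vehicle ears, which was so for 22.1% of all genes. Leaving out any 1 of several ears ended the calls of Ttn (dexamethasone ear 2, 3 or 4 or vehicle ear 5, adjusted p up to 0.0852), Neb (dexamethasone ear 2, 3 or 4 or vehicle ear 4, 5 or 6, adjusted p up to 0.128), Ryr1 (dexamethasone ear 2, 3 or 4 or vehicle ear 4, 5 or 6, adjusted p up to 0.121) and Ampd1 (dexamethasone ear 3 or 4 or vehicle ear 4, 5 or 6, adjusted p up to 0.180), and leaving out dexamethasone ear 3 that of Eno3 (-0.67, adjusted p = 0.0525). Cacna1s and Myom2 passed without vehicle ear 1 or 2 or dexamethasone ear 1, and Myoz1 without dexamethasone ear 1.

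**Figure D1:**
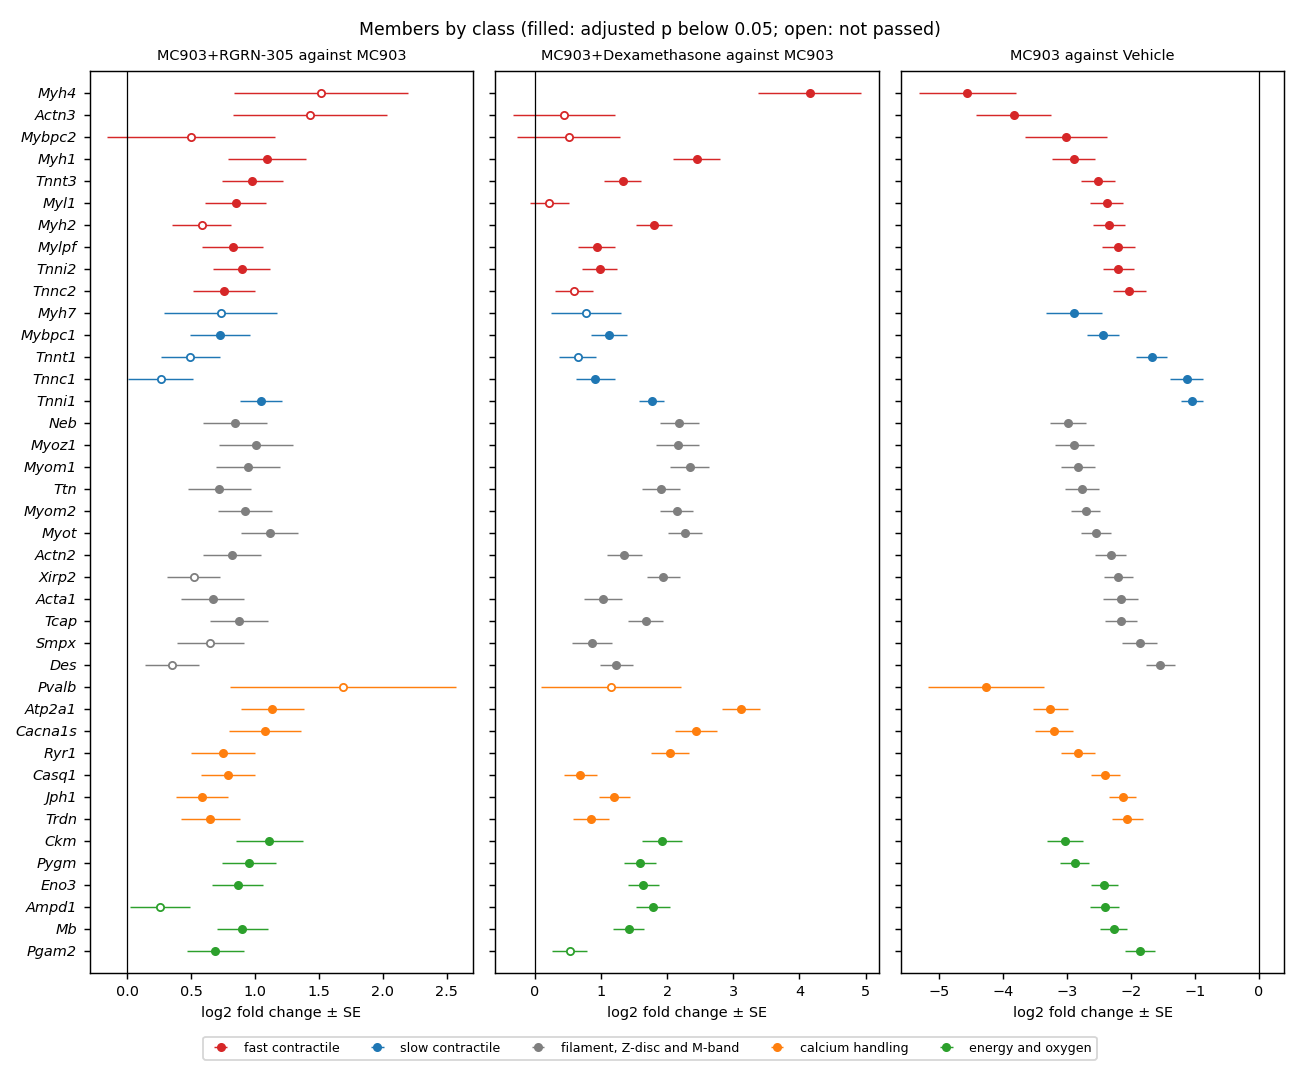
Log2 fold change ± SE of each of the 40 members (rows, grouped and coloured by class) in RGRN-305 ears against MC903 ears, dexamethasone ears against MC903 ears and MC903 ears against vehicle ears. Filled points passed an adjusted p of 0.05, and every point of the last panel lies below 0 while every point of the first 2 panels lies above 0.

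**Figure D2:**
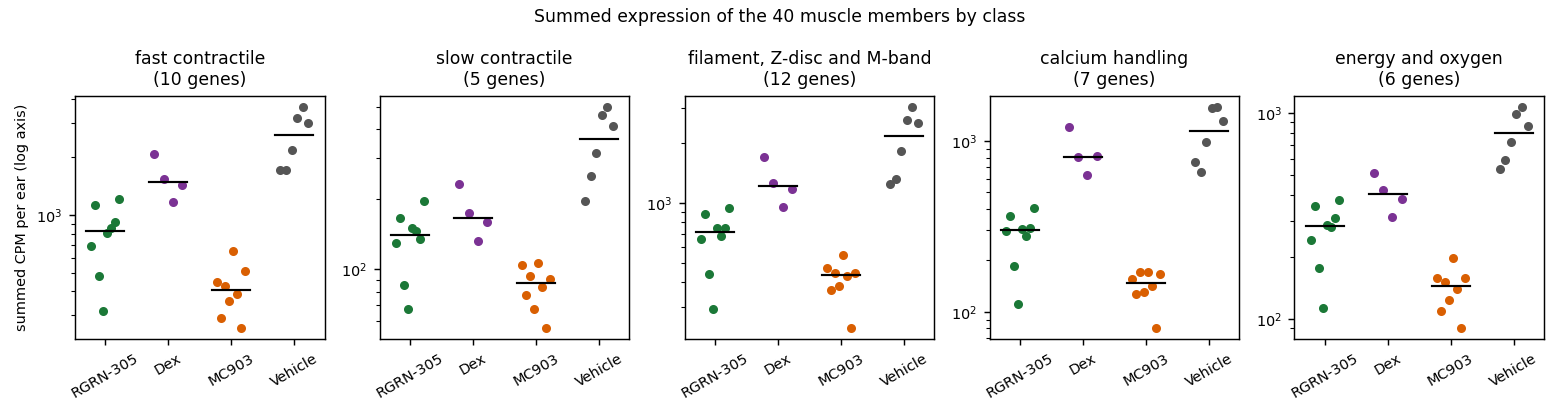
Summed CPM of the members of each class in each ear (log axis), with 1 point per mouse and a bar at the group median. In all 5 classes the medians run upward from MC903 over RGRN-305 and dexamethasone to vehicle ears.

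The fast contractile genes made up the largest class by summed level in vehicle ears. Over the 10 genes the summed levels (lowest, median and highest, or each of the dexamethasone ears 1 to 4, and likewise for each gene below) were 316, 830.0 and 1209.9 CPM in RGRN-305 ears, 2077, 1546, 1169 and 1427 CPM in the dexamethasone ears, 259, 406 and 652 CPM in MC903 ears and 1708, 2597 and 3665 CPM in vehicle ears. No MC903 ear reached the lowest vehicle ear, and the highest dexamethasone ear lay within the vehicle range. Myh1, the heavy chain of fast IIx fibres, had 118, 332 and 571 CPM in RGRN-305 ears and 1241, 892, 538 and 679 CPM in the dexamethasone ears. MC903 ears had 94.2, 145 and 254 CPM and vehicle ears 549, 1045 and 2012 CPM. Its level fell under MC903 by 2.89 ± 0.34 on the log2 scale (SE, adjusted p = 7.27e-08), and was higher than in MC903 ears by 1.09 ± 0.31 (adjusted p = 0.00671) under RGRN-305 and 2.45 ± 0.36 (adjusted p = 7.19e-06) under dexamethasone. RGRN-305 ears stayed below dexamethasone ears in Myh1 (-1.35 ± 0.36, adjusted p = 0.00496), although the ears of both groups overlapped.

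Myh2, the heavy chain of IIa fibres, had 39.3, 63.2 and 111 CPM in RGRN-305 ears and 201, 124, 121 and 177 CPM in the dexamethasone ears. MC903 ears had 20.2, 41.3 and 65.5 CPM and vehicle ears 153, 212 and 339 CPM. Its log2 fold change was -2.34 ± 0.25 (adjusted p = 1.89e-08) in MC903 ears against vehicle ears, 1.80 ± 0.27 (adjusted p = 1.02e-05) in dexamethasone ears against MC903 ears, and 0.58 ± 0.23 (adjusted p = 0.0522) in RGRN-305 ears against MC903 ears, where it did not pass. Without MC903 ear 1, 6 or 8 or RGRN-305 ear 4 or 6 it passed (0.63 to 0.68, adjusted p = 0.0264 to 0.0465). With all ears it passed in DESeq2 and with total counts without TMM (0.58 to 0.66, adjusted p = 0.0272 to 0.0311). Myh4, the heavy chain of IIb fibres, which contract fastest, varied widely between ears. It had 2.89, 16.0 and 85.6 CPM in RGRN-305 ears and 156, 95.7, 194 and 205 CPM in the dexamethasone ears. MC903 ears had 0.990, 4.70 and 26.8 CPM and vehicle ears 112, 154 and 518 CPM. Its fitted fall in MC903 ears against vehicle ears was the largest of the members, at -4.56 ± 0.76 (adjusted p = 1.26e-05), with Pvalb at -4.27 within that SE. Myh4 was 4.16 ± 0.78 (adjusted p = 1.54e-04) in dexamethasone ears against MC903 ears, so that all 4 dexamethasone ears lay above all MC903 ears. In RGRN-305 ears it reached from the MC903 range up to 85.6 CPM in ear 2, at 1.52 ± 0.68 (adjusted p = 0.0841) against MC903 ears and -2.64 ± 0.74 (adjusted p = 0.00816) against dexamethasone ears.

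The heavy chains can be set against each other per length within an ear. Of the summed RPKM of 7 heavy chains (Myh1, Myh2, Myh4, Myh7 and the developmental or specialised Myh3, Myh8 and Myh13), Myh4 made up 0.981%, 3.30% and 15.6% (lowest, median, highest) in RGRN-305 ears, 8.64%, 14.5% and 22.1% in dexamethasone ears, 0.516%, 1.93% and 10.6% in MC903 ears and 4.42%, 12.4% and 24.7% in vehicle ears. Myh1 made up 53.8%, 61.8% and 78.1% in RGRN-305 ears, 58.1%, 66.8% and 76.2% in dexamethasone ears, 53.9%, 58.2% and 72.3% in MC903 ears and 49.8%, 60.8% and 75.0% in vehicle ears. Myh1 was thus the main heavy chain in each of the 26 ears, and the groups overlapped in its share. Myh3, the embryonic heavy chain, made up 8.42%, 14.7% and 19.2% in RGRN-305 ears, 4.75%, 5.49% and 7.03% in dexamethasone ears, 11.9%, 17.8% and 28.0% in MC903 ears and 8.65%, 11.8% and 14.2% in vehicle ears. All 4 dexamethasone ears lay below all other ears in the share of Myh3. The heavy chain genes are close copies of each other, and reads that align to more than 1 of them were not counted.

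Among the regulatory proteins of fast fibres, Tnnt3, fast troponin T, had 39.8, 101 and 164 CPM in RGRN-305 ears and 166, 137, 89.5 and 121 CPM in the dexamethasone ears. MC903 ears had 32.5, 49.5 and 84.9 CPM and vehicle ears 205, 278 and 398 CPM. Its log2 fold change was -2.52 ± 0.26 (adjusted p = 1.01e-08) in MC903 ears against vehicle ears, 0.98 ± 0.24 (adjusted p = 0.00236) in RGRN-305 ears against MC903 ears and 1.33 ± 0.28 (adjusted p = 4.74e-04) in dexamethasone ears against MC903 ears. Tnnc2, fast troponin C, had 37.9, 90.8 and 155 CPM in RGRN-305 ears and 101, 85.6, 72.2 and 71.9 CPM in the dexamethasone ears. MC903 ears had 33.1, 49.8 and 99.4 CPM and vehicle ears 165, 214 and 275 CPM. It fell in MC903 ears (-2.03 ± 0.26, adjusted p = 2.70e-07) and rose under RGRN-305 (0.76 ± 0.24, adjusted p = 0.0152), while dexamethasone ears were at 0.60 ± 0.29 (adjusted p = 0.0928) against MC903 ears, which did not pass, and -1.43 ± 0.32 (adjusted p = 6.12e-04) against vehicle ears. MC903 ear 5 was the highest of its group in Tnnc2, and without it the dexamethasone contrast passed (0.77, adjusted p = 0.0220). Tnni2, fast troponin I, and Mylpf, the fast regulatory light chain, fell by 2.20 and 2.20 under MC903 and were 0.90 and 0.82 under RGRN-305 and 0.98 and 0.93 under dexamethasone against MC903 ears, all passed.

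Myl1, the fast essential light chain, went with the heavy chains under MC903 but not under dexamethasone. It had 10.7, 31.9 and 45.4 CPM in RGRN-305 ears and 22.2, 19.8, 14.6 and 17.3 CPM in the dexamethasone ears. MC903 ears had 9.35, 16.4 and 24.0 CPM and vehicle ears 62.7, 74.4 and 112 CPM. The dexamethasone ears lay inside the MC903 range, at 0.22 ± 0.29 (adjusted p = 0.567) against MC903 ears, and all lay below the vehicle ears, at -2.16 ± 0.33 (adjusted p = 6.00e-06). RGRN-305 ears were at 0.85 ± 0.24 (adjusted p = 0.00724) against MC903 ears and 0.63 ± 0.30 (adjusted p = 0.104) against dexamethasone ears, and without RGRN-305 ear 4 the contrast of the drugs passed (0.75, adjusted p = 0.0261). Actn3, the alpha-actinin of fast Z-discs, and Mybpc2, the fast myosin binding protein C, were low, with 2 to 44 reads in every MC903-challenged ear. Actn3 had 0.182, 0.586 and 2.21 CPM in RGRN-305 ears and 0.409, 0.303, 0.359 and 0.405 CPM in the dexamethasone ears. MC903 ears had 0.0881, 0.254 and 0.427 CPM and vehicle ears 0.763, 2.00 and 14.1 CPM. Mybpc2 had 0.145, 0.644 and 1.70 CPM in RGRN-305 ears and 0.655, 0.389, 0.871 and 1.10 CPM in the dexamethasone ears. MC903 ears had 0.157, 0.382 and 1.39 CPM and vehicle ears 0.662, 2.75 and 14.5 CPM. Both fell under MC903, by 3.83 and 3.01 on the log2 scale, and by 2.80 and 2.1 without vehicle ear 4, which held the highest level of both. With all ears, Actn3 passed in RGRN-305 ears against MC903 ears in DESeq2 and with total counts without TMM (1.46 to 1.48, adjusted p = 0.0239 to 0.0491). In the edgeR fit with TMM, neither gene passed in either drug group against MC903 ears. Against vehicle ears both were lower in dexamethasone ears, at -3.40 and -2.50, or -2.38 and -1.60 without vehicle ear 4, and in RGRN-305 ears, at -2.40 and -2.51, or -1.38 and -1.61 without it.

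**Figure D3:**
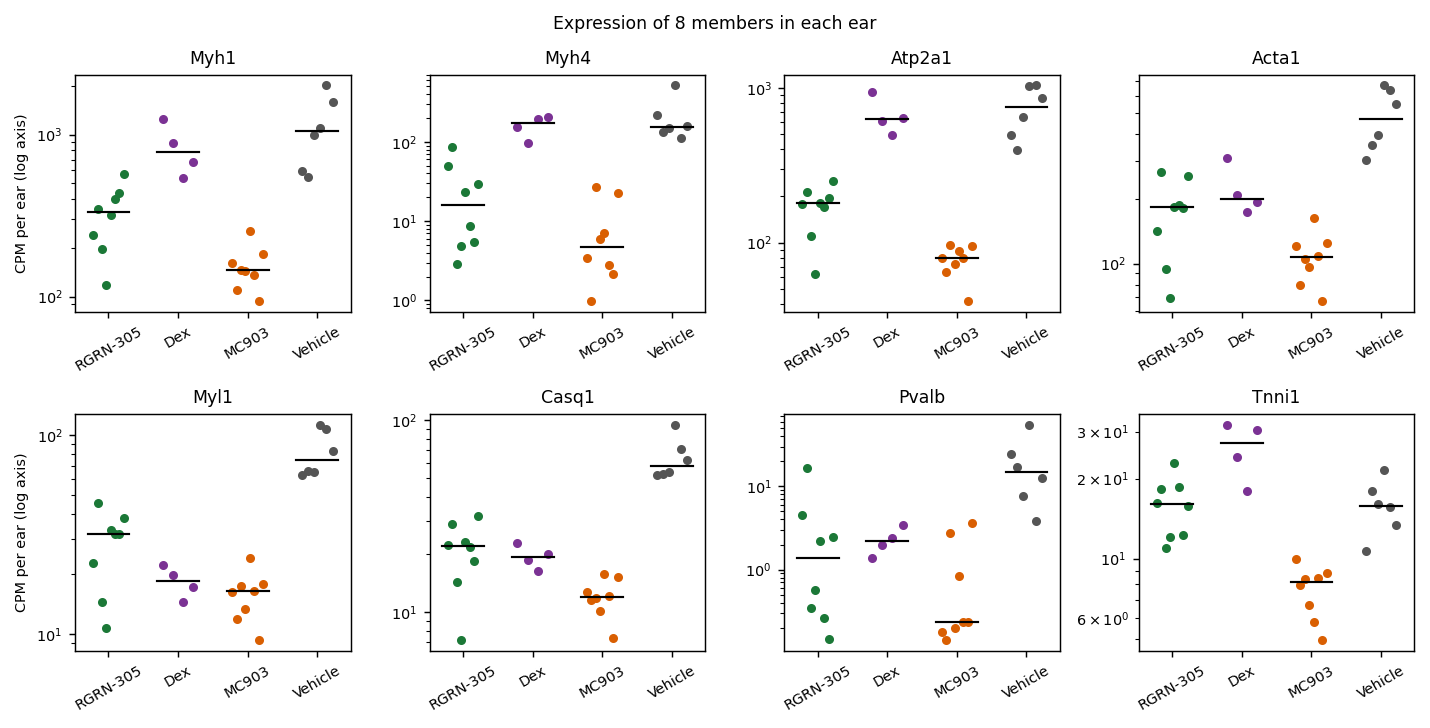
CPM of 8 members in each ear (log axes), with 1 point per mouse and a bar at the group median. In Myh1, Myh4 and Atp2a1 the dexamethasone ears overlap the vehicle ears, whereas in Myl1 and Casq1 they lie below all vehicle ears, and in Tnni1 the RGRN-305 and vehicle medians are 16.0 and 15.8 CPM.

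The slow contractile genes were fewer and lower. Their summed levels were 67.2, 141 and 196 CPM in RGRN-305 ears, 232, 174, 131 and 159.7 CPM in the dexamethasone ears, 55.9, 86.9 and 107 CPM in MC903 ears and 196, 364 and 499.8 CPM in vehicle ears. All MC903 ears lay below all vehicle ears, and the RGRN-305 ears overlapped both the MC903 and the dexamethasone ears. Mybpc1, the slow myosin binding protein C and the most abundant of them, had 28.9, 75.0 and 112 CPM in RGRN-305 ears and 129.7, 89.7, 67.1 and 84.9 CPM in the dexamethasone ears. MC903 ears had 25.2, 44.6 and 52.7 CPM and vehicle ears 133, 243 and 339 CPM. It fell under MC903 (-2.43 ± 0.25, adjusted p = 1.18e-08) and rose under RGRN-305 (0.73 ± 0.23, adjusted p = 0.0172) and dexamethasone (1.12 ± 0.28, adjusted p = 0.00197). Whether the reads of Mybpc1 came from slow fibres alone was not tested. Tnnt1, slow troponin T, had 22.9, 42.3 and 62.5 CPM in RGRN-305 ears and 61.5, 51.6, 38.6 and 36.3 CPM in the dexamethasone ears. MC903 ears had 21.4, 29.1 and 42.8 CPM and vehicle ears 43.9, 95.7 and 135 CPM. It fell under MC903 (-1.68 ± 0.25, adjusted p = 2.10e-06), and neither RGRN-305 (0.49 ± 0.23, adjusted p = 0.0970) nor dexamethasone (0.65 ± 0.28, adjusted p = 0.0585) ears passed against MC903 ears, except that RGRN-305 passed without RGRN-305 ear 3 or 4 (0.58 in each case, adjusted p up to 0.0472) and dexamethasone without MC903 ear 5 (0.74, adjusted p = 0.0373).

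Tnni1, slow troponin I, had the smallest fitted fall of the members under MC903, which did not differ from that of Tnnc1 beyond their SE. It had 10.9, 16.0 and 22.8 CPM in RGRN-305 ears and 31.9, 24.1, 17.9 and 30.3 CPM in the dexamethasone ears. MC903 ears had 4.95, 8.2 and 9.99 CPM and vehicle ears 10.7, 15.8 and 21.5 CPM. It was -1.04 ± 0.18 (adjusted p = 7.54e-06) in MC903 ears against vehicle ears, 1.05 ± 0.17 (adjusted p = 1.51e-05) in RGRN-305 ears against MC903 ears and 1.76 ± 0.19 (adjusted p = 3.28e-08) in dexamethasone ears against MC903 ears. Dexamethasone ears were above vehicle ears by 0.72 ± 0.20 (adjusted p = 0.00358), although 1 dexamethasone ear lay among the vehicle ears, and the call was lost when libraries were scaled by total counts (0.45, adjusted p = 0.0564). Tnnc1, troponin C of slow and cardiac muscle, had 2.02, 4.27 and 9.91 CPM in RGRN-305 ears and 7.94, 7.35, 6.25 and 7.55 CPM in the dexamethasone ears. MC903 ears had 2.53, 3.78 and 4.92 CPM and vehicle ears 5.66, 7.16 and 15.2 CPM. It fell under MC903 (-1.13 ± 0.26, adjusted p = 4.67e-04) and rose under dexamethasone (0.91 ± 0.30, adjusted p = 0.0133), while RGRN-305 ears were at 0.26 ± 0.25 (adjusted p = 0.439). Myh7, the slow heavy chain, was hardly present, with at most 10.6 CPM in any ear. It had 0.182, 1.06 and 1.86 CPM in RGRN-305 ears and 1.35, 0.778, 1.69 and 0.626 CPM in the dexamethasone ears. MC903 ears had 0.0396, 0.596 and 1.22 CPM and vehicle ears 2.58, 4.07 and 10.6 CPM. It fell under MC903 (-2.89 ± 0.44, adjusted p = 2.13e-06) and passed in neither drug group against MC903 ears (RGRN-305 0.73 ± 0.44, adjusted p = 0.202, dexamethasone 0.77 ± 0.52, adjusted p = 0.236).

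Matched fast and slow genes of 1 protein were compared within each ear as the log2 ratio of levels per length. Fast Tnni2 exceeded slow Tnni1 by 2.80 to 4.19 in RGRN-305 ears, 2.61 to 3.24 in dexamethasone ears, 3.11 to 4.80 in MC903 ears and 4.55 to 5.20 in vehicle ears. The dexamethasone ears were by median the least weighted to the fast gene here, and lay below all vehicle ears. The ratio of Tnnc2 to Tnnc1 was 4.15 to 5.81 in RGRN-305 ears, 3.63 to 4.06 in dexamethasone ears, 3.86 to 4.72 in MC903 ears and 4.56 to 5.70 in vehicle ears, with the same order for dexamethasone and vehicle ears. Tnnt3 over Tnnt1 went otherwise, with 1.23 to 1.93 in RGRN-305 ears, 1.69 to 2.22 in dexamethasone ears, 0.91 to 1.46 in MC903 ears and 1.85 to 2.70 in vehicle ears. All dexamethasone ears lay above all MC903 ears in that pair. Myh4 over Myh7 was 1.38 to 6.04 in RGRN-305 ears, 7.36 to 8.88 in dexamethasone ears, 2.00 to 7.77 in MC903 ears and 5.39 to 6.92 in vehicle ears, the highest MC903 value resting on 1 read of Myh7. Mybpc2 over Mybpc1 was -8.78 to -5.02 in RGRN-305 ears, -7.52 to -5.94 in dexamethasone ears, -8.06 to -4.67 in MC903 ears and -8.49 to -3.97 in vehicle ears, so that the slow gene was the higher in every ear. The 5 pairs did not move alike, and no ratio was tested.

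**Figure D4:**
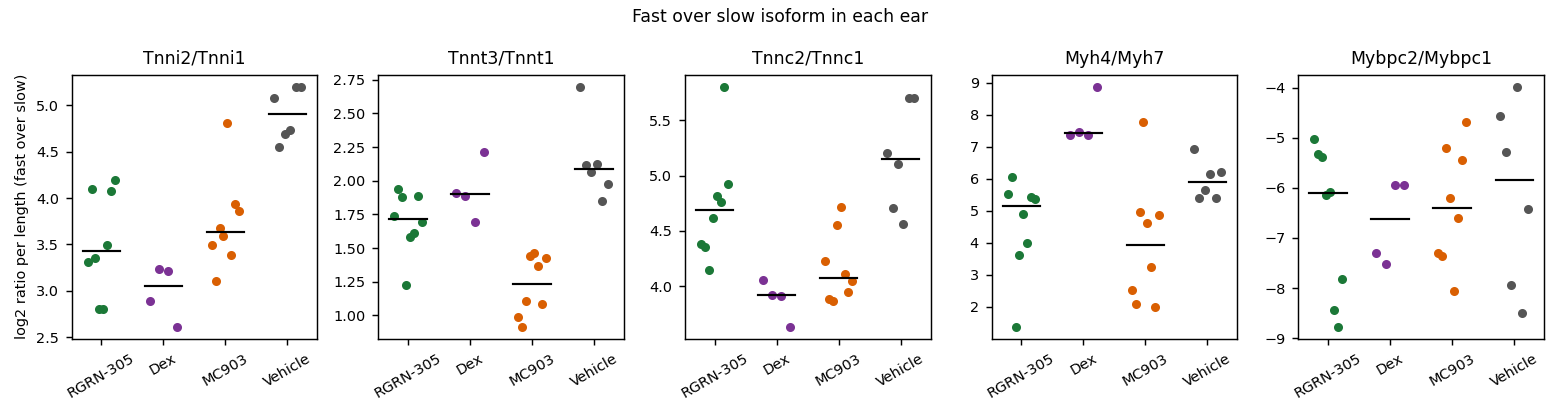
Log2 ratio of a fast gene to its slow counterpart per length in each ear, for 5 pairs, with 1 point per mouse and a bar at the group median. The dexamethasone ears lie below the vehicle ears in Tnni2/Tnni1 and Tnnc2/Tnnc1 and above all vehicle ears in Myh4/Myh7.

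The genes of the filaments, Z-disc and M-band had summed levels of 292, 718 and 946 CPM in RGRN-305 ears, 1702, 1257, 960.0 and 1181 CPM in the dexamethasone ears, 235, 435 and 545 CPM in MC903 ears and 1253, 2169 and 3056 CPM in vehicle ears. All 12 fell under MC903, with a median of -2.43, and all 12 rose under dexamethasone with a median of 1.93, while 9 rose under RGRN-305 with a median of 0.83 over the class. Of all genes tested, 35.7% were lower under MC903, 23% higher under dexamethasone and 18.6% higher under RGRN-305. Acta1, the actin of the thin filament, had 69.3, 182 and 265 CPM in RGRN-305 ears and 309, 207, 173 and 193 CPM in the dexamethasone ears. MC903 ears had 67.2, 107 and 163 CPM and vehicle ears 304, 470.2 and 670.2 CPM. Its log2 fold change was -2.16 ± 0.27 (adjusted p = 1.67e-07) in MC903 ears against vehicle ears, 0.67 ± 0.25 (adjusted p = 0.0353) in RGRN-305 ears against MC903 ears and 1.03 ± 0.29 (adjusted p = 0.00595) in dexamethasone ears against MC903 ears. Ttn, the spring protein titin, had 39.4, 105 and 138 CPM in RGRN-305 ears and 308, 211, 176 and 197 CPM in the dexamethasone ears. MC903 ears had 31.7, 61.9 and 69.8 CPM and vehicle ears 196, 429 and 612 CPM. It was -2.76 ± 0.27 (adjusted p = 4.02e-09) in MC903 ears against vehicle ears, 0.72 ± 0.25 (adjusted p = 0.0236) in RGRN-305 ears against MC903 ears and 1.91 ± 0.29 (adjusted p = 1.00e-05) in dexamethasone ears against MC903 ears. Des, desmin, which ties Z-discs together and is also made in smooth muscle, had 39.2, 90.7 and 107 CPM in RGRN-305 ears and 206, 146, 119 and 140.3 CPM in the dexamethasone ears. MC903 ears had 37.7, 65.1 and 95 CPM and vehicle ears 116, 191 and 278 CPM. It fell less than other members of its class under MC903 (-1.54 ± 0.23, adjusted p = 2.05e-06), rose under dexamethasone (1.23 ± 0.25, adjusted p = 3.13e-04) and was 0.35 ± 0.21 (adjusted p = 0.204) in RGRN-305 ears against MC903 ears.

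This class also held Neb, nebulin, Actn2, the general alpha-actinin of Z-discs, the Z-disc proteins Tcap, Myot and Myoz1, and Xirp2 and Smpx. These genes fell by between 1.86 (Smpx) and 2.98 (Neb) under MC903, with SE of at most 0.30. The M-band genes Myom1 and Myom2 fell by 2.83 and 2.71. In dexamethasone ears against MC903 ears the changes of these 9 genes ran from 0.86 for Smpx to 2.34 for Myom1, and Myot, Myoz1, Myom1, Myom2 and Neb each rose by more than 2. In RGRN-305 ears they ran from 0.52 for Xirp2, which did not pass (adjusted p = 0.0536), to 1.12 for Myot. Within this class, 9 of 12 genes were lower in RGRN-305 than in dexamethasone ears, with a median of -1.15, where 17.8% of all genes tested were lower.

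The calcium handling genes had summed levels of 110.3, 302 and 404 CPM in RGRN-305 ears, 1210.2, 802, 634 and 815 CPM in the dexamethasone ears, 80.5, 148 and 171 CPM in MC903 ears and 655, 1151 and 1591 CPM in vehicle ears, and 3 of the 4 dexamethasone ears lay inside the vehicle range. Atp2a1, the calcium pump of fast fibres, made up most of this sum. It had 62.7, 179.8 and 250.4 CPM in RGRN-305 ears and 945, 609.7, 493 and 641 CPM in the dexamethasone ears. MC903 ears had 42.0, 79.6 and 96.4 CPM and vehicle ears 393, 754 and 1036 CPM. It fell under MC903 (-3.26 ± 0.27, adjusted p = 3.17e-10), rose under RGRN-305 (1.13 ± 0.25, adjusted p = 7.97e-04) and rose by more under dexamethasone (3.12 ± 0.29, adjusted p = 1.09e-08). RGRN-305 ears lay below all dexamethasone ears (-1.99 ± 0.28, adjusted p = 9.54e-06), and dexamethasone ears overlapped vehicle ears (-0.14 ± 0.31, adjusted p = 0.717). Ryr1, the calcium release channel, had 20.7, 45.6 and 53.3 CPM in RGRN-305 ears and 151, 101, 77 and 90.6 CPM in the dexamethasone ears. MC903 ears had 11.4, 25.3 and 34.3 CPM and vehicle ears 93.3, 183 and 294 CPM. It was -2.83 ± 0.27 (adjusted p = 2.78e-09) in MC903 ears against vehicle ears, 0.75 ± 0.25 (adjusted p = 0.0200) in RGRN-305 ears against MC903 ears and 2.05 ± 0.29 (adjusted p = 4.30e-06) in dexamethasone ears against MC903 ears. Cacna1s, the voltage sensor that opens Ryr1, changed by -3.20, 1.08 and 2.43 in the same contrasts, each passed.

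Trdn, triadin, which anchors calsequestrin to the release channel, had 13.5, 28.9 and 50.4 CPM in RGRN-305 ears and 45.8, 40.7, 21.9 and 30.5 CPM in the dexamethasone ears. MC903 ears had 15.1, 18.0 and 29.2 CPM and vehicle ears 51.0, 81.1 and 102 CPM. It was -2.05 ± 0.25 (adjusted p = 1.02e-07) in MC903 ears against vehicle ears, 0.65 ± 0.23 (adjusted p = 0.0296) in RGRN-305 ears and 0.84 ± 0.27 (adjusted p = 0.0146) in dexamethasone ears against MC903 ears, and -1.21 ± 0.30 (adjusted p = 0.00159) in dexamethasone ears against vehicle ears. Casq1, calsequestrin, the calcium store of fast fibres, had 7.17, 22.1 and 31.6 CPM in RGRN-305 ears and 22.8, 18.8, 16.4 and 20.2 CPM in the dexamethasone ears. MC903 ears had 7.34, 12 and 15.8 CPM and vehicle ears 51.5, 57.9 and 94.7 CPM. All ears of the drug groups and of MC903 lay below all vehicle ears in Casq1. It was 0.79 ± 0.21 (adjusted p = 0.00464) in RGRN-305 ears and 0.69 ± 0.25 (adjusted p = 0.0287) in dexamethasone ears against MC903 ears, and still -1.72 ± 0.28 (adjusted p = 1.31e-05) in dexamethasone ears against vehicle ears. Jph1, junctophilin, which joins the calcium store to the surface membrane, changed by -2.12 in MC903 ears against vehicle ears, 0.59 in RGRN-305 ears and 1.2 in dexamethasone ears against MC903 ears. Pvalb, parvalbumin, a calcium buffer of the fastest fibres, had 0.145, 1.37 and 16.8 CPM in RGRN-305 ears and 1.39, 1.99, 2.41 and 3.46 CPM in the dexamethasone ears. MC903 ears had 0.141, 0.231 and 3.63 CPM and vehicle ears 3.79, 14.8 and 55.4 CPM. It was at 3 to 5 reads in 5 of 8 MC903 ears and fell by 4.27 ± 0.90 (adjusted p = 2.29e-04), or by 3.67 without vehicle ear 4. Neither drug group passed against MC903 ears (RGRN-305 1.69 ± 0.88, adjusted p = 0.141, dexamethasone 1.15 ± 1.06, adjusted p = 0.390). With each mouse left out the RGRN-305 value ran from 0.53 without RGRN-305 ear 2 to 2.26 without MC903 ear 8, and the dexamethasone value from 0.88 to 1.72. Against vehicle ears the log2 fold change of Pvalb was -2.58 in RGRN-305 ears, or -1.98 without vehicle ear 4 and -3.74 without RGRN-305 ear 2, and -3.12 in dexamethasone ears, whose call was lost without vehicle ear 4 or dexamethasone ear 1 (-2.93 to -2.52, adjusted p up to 0.0548).

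The genes of energy and oxygen supply had summed levels of 113, 283 and 376 CPM in RGRN-305 ears, 510.2, 422, 313 and 384 CPM in the dexamethasone ears, 90.6, 145 and 197 CPM in MC903 ears and 536, 795 and 1071 CPM in vehicle ears. All 6 fell under MC903, where 35.7% of all genes tested were lower. Of them 5 rose under each drug against MC903 ears, where 18.6% of all genes were higher under RGRN-305 and 23% under dexamethasone. Mb, myoglobin, which stores oxygen, had 53.9, 129 and 168 CPM in RGRN-305 ears and 202, 197, 127 and 162 CPM in the dexamethasone ears. MC903 ears had 39.3, 65.6 and 86.9 CPM and vehicle ears 197, 323 and 421 CPM. It was -2.27 ± 0.21 (adjusted p = 1.96e-09) in MC903 ears against vehicle ears, 0.90 ± 0.20 (adjusted p = 9.04e-04) in RGRN-305 ears against MC903 ears and 1.42 ± 0.23 (adjusted p = 2.82e-05) in dexamethasone ears against MC903 ears. Ckm, the muscle creatine kinase, had 18.3, 52.5 and 80.9 CPM in RGRN-305 ears and 122, 87.8, 71.9 and 81.2 CPM in the dexamethasone ears. MC903 ears had 15.8, 23.4 and 36.5 CPM and vehicle ears 135, 189.6 and 264 CPM. It was -3.04 ± 0.28 (adjusted p = 2.03e-09) in MC903 ears against vehicle ears, 1.11 ± 0.26 (adjusted p = 0.00157) in RGRN-305 ears and 1.92 ± 0.30 (adjusted p = 1.68e-05) in dexamethasone ears against MC903 ears. Eno3, the muscle enolase of glycolysis, had 22.1, 52.6 and 72.3 CPM in RGRN-305 ears and 111, 83.8, 66.6 and 87.8 CPM in the dexamethasone ears. MC903 ears had 18.5, 28.6 and 39.2 CPM and vehicle ears 104, 144 and 197 CPM. It was -2.42 ± 0.21 (adjusted p = 6.67e-10) in MC903 ears against vehicle ears, 0.87 ± 0.20 (adjusted p = 0.00132) in RGRN-305 ears and 1.64 ± 0.23 (adjusted p = 4.18e-06) in dexamethasone ears against MC903 ears.

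Pygm, the glycogen phosphorylase of muscle, changed by -2.88 in MC903 ears against vehicle ears, 0.96 in RGRN-305 ears and 1.59 in dexamethasone ears against MC903 ears. Pgam2, the muscle phosphoglycerate mutase, had 7.22, 19.5 and 26.4 CPM in RGRN-305 ears and 20.0, 15.3, 14.7 and 15.4 CPM in the dexamethasone ears. MC903 ears had 6.26, 11.4 and 17.1 CPM and vehicle ears 28.5, 39.2 and 54.9 CPM. It rose under RGRN-305 (0.69 ± 0.22, adjusted p = 0.0154). Under dexamethasone it did not pass (0.52 ± 0.26, adjusted p = 0.108), but did when only these 2 groups were fitted (0.53, adjusted p = 0.0263). Ampd1, the muscle AMP deaminase, had 0.730, 0.980 and 1.62 CPM in RGRN-305 ears and 3.97, 3.54, 1.79 and 2.87 CPM in the dexamethasone ears. MC903 ears had 0.557, 0.873 and 1.2 CPM and vehicle ears 3.04, 4.48 and 7.46 CPM. It rose under dexamethasone (1.79 ± 0.26, adjusted p = 1.97e-06) but did not pass under RGRN-305 (0.26 ± 0.23, adjusted p = 0.407). RGRN-305 ears were below dexamethasone ears in Ampd1 (-1.53 ± 0.25, adjusted p = 2.47e-05), without overlap, and at 0.17 ± 0.27 (adjusted p = 0.656) in Pgam2, so that the drug groups were not shown to differ in that gene.

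Fast, slow and metabolic genes were set side by side by their medians, without a test of the difference between classes. In MC903 ears against vehicle ears the median log2 fold change was -2.45 for fast contractile, -1.68 for slow contractile, -2.43 for filament, Z-disc and M-band, -2.83 for calcium handling and -2.41 for energy and oxygen genes. In RGRN-305 ears against MC903 ears the medians were 0.87, 0.73, 0.83, 0.79 and 0.88 in the same order, and 6 of 10, 2 of 5, 9 of 12, 6 of 7 and 5 of 6 rose, where 18.6% of all genes tested were higher. In dexamethasone ears against MC903 ears the medians were 0.96, 0.91, 1.93, 1.2 and 1.61, and 6, 3, 12, 6 and 5 rose, where 23% of all genes were higher. The fast class held both the member with the largest and the member with the smallest change under dexamethasone, so that its median hides the split between heavy chains and light chains or troponins.

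Among the members, the split under dexamethasone went along with gene length. Length is the gene length of the count table, and the relation was looked for after the values were seen. Over the 40 members, Spearman's correlation between length and log2 fold change was 0.48 in dexamethasone ears against MC903 ears and -0.11 in RGRN-305 ears against MC903 ears, and it was -0.57 in RGRN-305 ears against dexamethasone ears and -0.34 in MC903 ears against vehicle ears. Over all 20167 genes tested it was 0.19, -0.012, -0.22 and -0.19 in the same contrasts. Over 34 other genes of muscle fibres it was 0.26, -0.030, -0.28 and -0.46. In dexamethasone ears against vehicle ears it was 0.30 over the members, -0.17 over the other fibre genes and -0.085 over all genes. These correlations describe genes of the same libraries, which are not independent, and the contrasts share groups. Of the 20 shortest members (800 to 3218 bases), 14 rose under dexamethasone against MC903 ears with a median of 1.01, and of the 20 longest (3477 to 117334 bases) 18 rose with a median of 1.86, where 23% of all genes tested were higher. Under RGRN-305 the medians were 0.87 in the shortest and 0.74 in the longest. The part of length in the split was not tested.

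**Figure D5:**
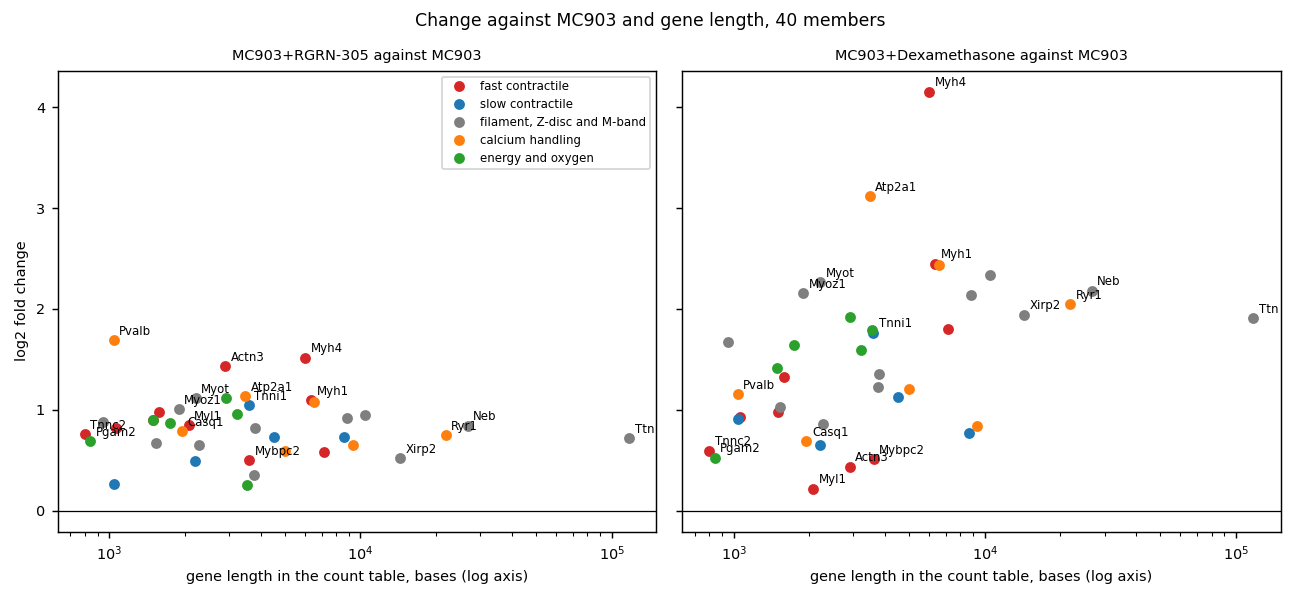
Log2 fold change of each member against its gene length (log axis, bases) in RGRN-305 ears against MC903 ears and dexamethasone ears against MC903 ears, coloured by class. In the dexamethasone panel the 20 longest members have a median of 1.86 and the 20 shortest of 1.01, and in the RGRN-305 panel the medians are 0.74 and 0.87.

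The ears of 1 group differed more in these genes than in most others. The median SD of log2 CPM over the members was 0.63 in RGRN-305 ears, 0.36 in dexamethasone ears, 0.40 in MC903 ears and 0.51 in vehicle ears, against 0.24, 0.22, 0.23 and 0.21 over all genes tested. Summed over the 40 members, RGRN-305 ears ran from 899 CPM in ear 4 to 3132 CPM in ear 8, so that the lowest lay among the MC903 ears (721 to 1671 CPM) and the highest near the lowest dexamethasone ear (3208 CPM). RGRN-305 ear 4 was the lowest of its group in 31 members, and ears 8 and 2 were the highest in 18 and 17. Dexamethasone ear 1 was the highest of its group in 34 members and ear 3 the lowest in 33. MC903 ear 7, of low depth, was the lowest of its group in 28 members. Among vehicle ears, ear 5 was the highest in 25 members and ear 4 in 15, among them Myh4, Actn3, Mybpc2, Pvalb and Myh7.

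Further lists of muscle genes were read against the shares of all genes tested. These were 35.7% lower and 34.5% higher under MC903, 19.4% lower and 18.6% higher under RGRN-305 and 23.3% lower and 23% higher under dexamethasone against MC903 ears. Of 34 further genes of muscle fibres, 32 fell under MC903, 28 rose under RGRN-305 and 27 rose under dexamethasone against MC903 ears, with medians of -2.25, 0.77 and 1.32. Mylk2, the kinase of skeletal myosin light chains, had 1.5 to 5.43 CPM in RGRN-305 ears, 16.3 to 32.5 CPM in dexamethasone ears, 0.927 to 3.21 CPM in MC903 ears and 11.1 to 27.4 CPM in vehicle ears. It was 3.33 ± 0.27 (adjusted p = 5.49e-10) in dexamethasone ears against MC903 ears. Pfkm, the muscle phosphofructokinase, had 41.3 to 93.2 CPM in RGRN-305 ears, 75.0 to 123 CPM in dexamethasone ears, 28.9 to 49.6 CPM in MC903 ears and 141 to 275 CPM in vehicle ears. Nrap, a protein of forming myofibrils, had 25.6 to 77.1 CPM in RGRN-305 ears, 56.3 to 93.7 CPM in dexamethasone ears, 16.4 to 40.8 CPM in MC903 ears and 95.6 to 276 CPM in vehicle ears. Both fell under MC903 (-2.21 and -2.57) and rose under each drug.

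Of the 14 developmental and cardiac isoforms, 10 fell and 2 rose under MC903. Against MC903 ears 3 rose under RGRN-305, and 4 rose and 3 fell under dexamethasone. Myh3 had 36.1 to 93.4 CPM in RGRN-305 ears, 53.0 to 78.1 CPM in dexamethasone ears, 15.1 to 54.2 CPM in MC903 ears and 114 to 274 CPM in vehicle ears. It was -2.16 ± 0.25 (adjusted p = 8.26e-08) in MC903 ears against vehicle ears, 0.56 ± 0.24 (adjusted p = 0.0664) in RGRN-305 and 0.60 ± 0.28 (adjusted p = 0.0865) in dexamethasone ears against MC903 ears. Myh8, the perinatal heavy chain, had 2.72 to 14.0 CPM in RGRN-305 ears, 13.0 to 26.4 CPM in dexamethasone ears, 2.16 to 7.23 CPM in MC903 ears and 11.6 to 24.6 CPM in vehicle ears. It fell under MC903 (-2.49) and rose under RGRN-305 (1.08) and dexamethasone (2.32). Tnnt2, cardiac troponin T, had 19.3 to 40.2 CPM in RGRN-305 ears, 22.2 to 35.0 CPM in dexamethasone ears, 11.8 to 16.7 CPM in MC903 ears and 17.5 to 25.4 CPM in vehicle ears. It rose under both drugs against MC903 ears (0.89 and 1.02). Myl7, the atrial light chain, went the other way from the members under MC903, with 2.34 to 7.56 CPM in RGRN-305 ears, 3.64 to 6.30 CPM in dexamethasone ears, 0.633 to 1.16 CPM in MC903 ears and 0 to 0.0509 CPM in vehicle ears. No MC903 or treated ear overlapped the vehicle ears. It rose again under RGRN-305 (2.25) and dexamethasone (2.45) against MC903 ears. Myl2, the slow regulatory light chain, was higher in RGRN-305 than in dexamethasone ears (1.56 ± 0.43, adjusted p = 0.00606) and was -1.12 ± 0.43 (adjusted p = 0.0337) in dexamethasone ears against MC903 ears, so that it fell where most members rose.

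Of 10 myogenic regulators tested (of 12 listed), 10 fell under MC903, 4 rose under RGRN-305 and 5 under dexamethasone against MC903 ears. Myod1, the master regulator of muscle, had 0.0937 to 1.24 CPM in RGRN-305 ears, 1.03 to 1.96 CPM in dexamethasone ears, 0.0773 to 0.576 CPM in MC903 ears and 1.52 to 4.50 CPM in vehicle ears. It was -2.93 under MC903, 0.97 under RGRN-305 and 1.87 under dexamethasone, each passed. Pax7, which marks muscle stem cells, had 0.234 to 0.730 CPM in RGRN-305 ears, 0.123 to 0.368 CPM in dexamethasone ears, 0.0524 to 0.464 CPM in MC903 ears and 0.695 to 1.94 CPM in vehicle ears. It rose under RGRN-305 (1.18 ± 0.35, adjusted p = 0.00797) but was 0.25 ± 0.45 (adjusted p = 0.672) under dexamethasone. Mef2a and Mef2d, which many tissues express, fell by 0.78 and 0.44 under MC903.

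Of 10 muscle atrophy genes, several of which glucocorticoids are known to induce in muscle, 6 fell and 2 rose under MC903, and 7 rose under dexamethasone and 5 rose and 1 fell under RGRN-305 against MC903 ears. Klf15, a glucocorticoid-induced factor, had 3.73 to 6.23 CPM in RGRN-305 ears, 6.36 to 19.2 CPM in dexamethasone ears, 1.39 to 3.39 CPM in MC903 ears and 8.99 to 14.1 CPM in vehicle ears. Trim63, a muscle ubiquitin ligase, had 2.11 to 7.81 CPM in RGRN-305 ears, 7.79 to 14.3 CPM in dexamethasone ears, 2.50 to 4.06 CPM in MC903 ears and 8.21 to 18.5 CPM in vehicle ears. Klf15 and Trim63 fell under MC903 (-2.17 and -1.98), rose under dexamethasone (2.35 and 1.79), and in dexamethasone ears against vehicle ears were 0.17 ± 0.21 (adjusted p = 0.496) and -0.19 ± 0.26 (adjusted p = 0.561). Ddit4, another glucocorticoid target, was higher in dexamethasone than in vehicle ears (1.46 ± 0.19, adjusted p = 4.64e-07). Zfand5 and Foxo3, the highest of the list, also have high levels outside muscle, and Zfand5 rose under MC903 (0.64).

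Of 9 neuromuscular junction genes tested (of 10 listed), 9 fell under MC903, 6 rose under RGRN-305 and 9 rose under dexamethasone. Scn4a, the muscle sodium channel, had 2.53 to 6.29 CPM in RGRN-305 ears, 9.94 to 17.5 CPM in dexamethasone ears, 0.850 to 2.60 CPM in MC903 ears and 8.99 to 28.1 CPM in vehicle ears. Chrne, the adult subunit of the acetylcholine receptor, fell by 2.96 under MC903 and rose by 2.01 under dexamethasone. Of 10 genes of the sarcolemma and the dystrophin complex, 10 fell under MC903 and 4 and 7 rose under RGRN-305 and dexamethasone, while 1 fell under RGRN-305, with Dmd, dystrophin, at -1.65, 0.51 and 1.02. Of 9 chaperones of myosin and muscle, a group of interest because HSP90 folds myosin together with Unc45b and Smyd1, 8 fell under MC903. Against MC903 ears 5 rose and 1 fell under RGRN-305, and 6 rose under dexamethasone. Unc45b had 3.0 to 7.06 CPM in RGRN-305 ears, 8.30 to 13.4 CPM in dexamethasone ears, 3.58 to 5.24 CPM in MC903 ears and 10.5 to 22.7 CPM in vehicle ears. It was 0.36 ± 0.17 (adjusted p = 0.0900) in RGRN-305 ears against MC903 ears and 1.19 ± 0.19 (adjusted p = 1.29e-05) in dexamethasone ears against MC903 ears. Smyd1 had 3.14 to 10.1 CPM in RGRN-305 ears, 9.53 to 18.1 CPM in dexamethasone ears, 2.01 to 5.33 CPM in MC903 ears and 16.7 to 35.9 CPM in vehicle ears. It rose under both RGRN-305 (0.76 ± 0.21, adjusted p = 0.00606) and dexamethasone (1.66 ± 0.24, adjusted p = 4.10e-06). Bag3, a stress chaperone of many tissues, was the 1 gene of the list that rose under MC903 (0.23).

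Markers of other tissues moved in different directions. Under MC903, 11 fell and 1 rose of 12 adipocyte markers (median -2.34), 12 fell of 13 tested cartilage markers (median -1.25) and 11 rose of 11 leukocyte markers. The median of the 40 members there was -2.41. Of 9 tested smooth muscle markers 5 fell and 2 rose, and of 10 keratinocyte markers 2 fell and 6 rose. Of all genes tested, 35.7% were lower and 34.5% higher. Under RGRN-305 against MC903 ears, 1 fell and 8 rose of the adipocyte markers (median 0.75), 2 fell and 2 rose of the cartilage markers (median 0.16) and 11 fell of the leukocyte markers. Of the smooth muscle markers 3 fell and 1 rose, and of the keratinocyte markers 4 fell and 2 rose, where 19.4% of all genes were lower and 18.6% higher. Under dexamethasone against MC903 ears, 12 rose of the adipocyte markers (median 1.81), 6 fell and 1 rose of the cartilage markers (median -0.22) and 11 fell of the leukocyte markers. Of the smooth muscle markers 4 fell and 3 rose, and of the keratinocyte markers 2 fell and 3 rose, where 23.3% of all genes were lower and 23% higher. The share of these tissues in the change of the muscle genes was not tested.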

How the data were processed

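RNA was sequenced from ear punches of 26 mice, from a directional library kit. According to the labels and methods, the authors counted uniquely aligned, unambiguous reads per gene with Subread 2.10.3 on GRCm39, and what they deposited is the unscaled number of counted reads of 57010 genes in each library. The annotation release and the strand setting of the counting are not given in the sources used here. Of these genes, 17061 had no count in any library. Symbols were matched by gene identifier to GENCODE mouse release 39. No column belonged to a sample outside the series.

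The 20167 genes kept by filterByExpr (minimum count 10, minimum total 15) were fitted in 1 edgeR 4.0.16 quasi-likelihood model (R 4.3.3) over all 26 libraries, with TMM scaling and robust dispersion. The 6 comparisons between groups were contrasts of it, with Benjamini-Hochberg adjustment over all genes tested, and a gene was called at an adjusted p below 0.05. The fold limit of 1.5 is on the log2 scale. Each ± after a log2 fold change is the SE of the fit. The model was tested on simulated data with the same dispersion for every gene and changes only in well-counted genes. That simulation did not cover members of few reads or wide spread. Sums, ratios, shares and length relations were computed in Python 3.11.15 (pandas 2.3.3, scipy 1.17.1) and carry no test. Fold changes of RGRN-305 and dexamethasone ears against MC903 ears share the MC903 mice.

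All 40 members were accounted for. Values were given for 4 heavy chains, the 3 members of highest mean CPM in each class, Pvalb and Atp2a1, and members whose call or direction went against the majority, and in the other lists for genes among the 2 of highest mean CPM or the 2 of smallest adjusted p in a comparison. The further Z-disc and M-band genes, Pygm, Tnni2, Mylpf, Cacna1s, Jph1 and Pgam2 were named beyond this rule, after their values were seen. The members, lists and tests were chosen with earlier results of these data known. Alternatives were DESeq2 1.42.0, other scalings and filters, single groups, a replicate block and leaving out each mouse. One more, chosen after seeing the data, left out the 2 libraries of lowest depth.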

Additional observations from a re-analysis of the deposited data

Results flagged for a closer look

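In each group, the ear farthest from its neighbours was set against Dixon's limit in each member and in the sum of the members. Of 164 such groups, 14 held an ear beyond the limit. Chance alone puts about 1 in 20 groups there only if they are independent and their values normally distributed. The members share the same ears and their CPM were not logged, so that rate is no benchmark here. Vehicle ear 4 stood above the other vehicle ears in 4 genes. It had 518 CPM of Myh4, against 112 to 219 CPM in the others, and 14.1 CPM of Actn3, against 0.763 to 3.61 CPM. It also had 14.5 CPM of Mybpc2, against 0.662 to 4.47 CPM, and 10.6 CPM of Myh7, against 2.58 to 4.49 CPM. RGRN-305 ear 2 stood above its group in 3 genes. It had 16.8 CPM of Pvalb, against 0.145 to 4.58 CPM in the others, 2.21 CPM of Actn3, against 0.182 to 1.02 CPM, and 9.91 CPM of Tnnc1, against 2.02 to 5.59 CPM.

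MC903 ear 7 stood below its group in 5 genes of the filaments, Z-disc and M-band. It had 31.7 CPM of Ttn, against 57.2 to 69.8 CPM in the others, and 13.5 CPM of Neb, against 31.6 to 37.0 CPM. It had 16.5 CPM of Actn2, against 29.2 to 38.7 CPM, 8.11 CPM of Myom2, against 13.8 to 18.0 CPM, and 17.0 CPM of Xirp2, against 31.0 to 38.1 CPM. This ear had 14311046 counts, the fewest of its group. MC903 ear 5 had 99.4 CPM of Tnnc2, against 33.1 to 60.8 CPM in the others. Dexamethasone ear 1 had 20.0 CPM of Pgam2, against 14.7 to 15.4 CPM in the others.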

How the results depend on the processing

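The fall of all 40 members in MC903 ears against vehicle ears, and of 39 in RGRN-305 ears against vehicle ears, held in every alternative run that kept the adjusted p alone as the call. With the further limit of 1.5 on the log2 fold change, 0 members were higher in RGRN-305 ears and 19 in dexamethasone ears against MC903 ears. With that limit 3 were lower in RGRN-305 ears against dexamethasone ears, 25 were lower in RGRN-305 ears against vehicle ears, and 6 were lower and 0 higher in dexamethasone ears against vehicle ears. Total counts without TMM shifted the median of all genes to -0.28 in MC903 ears and -0.32 in dexamethasone ears against vehicle ears. The members' median in MC903 ears was then -2.68, and 0 members were higher in dexamethasone ears against vehicle ears (edgeR, Tnni1 at 0.45). That scaling also turned Mybpc2 (0.078) and Myh7 (0.042) in RGRN-305 ears against dexamethasone ears, and Tnni1 (-0.19) in RGRN-305 ears against vehicle ears, which was -0.0060 with only both groups fitted.

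Ears with the same mouse number had correlations of deviations of -0.34 to 0.29. No such values were taken between ears of different numbers, so they cannot show whether the numbers pair the mice. With the number as a replicate block, Tnnc2 (-0.042), Mybpc2 (0.49), Myh7 (0.18), Casq1 (-0.020) and Pgam2 (-0.074) changed sign in RGRN-305 ears against dexamethasone ears, none of them called, and the call of Myh4 there was lost (-2.32, adjusted p = 0.0506), while Mb passed there (-0.69, adjusted p = 0.0426). The block also ended the calls of Acta1 under RGRN-305 (0.65, adjusted p = 0.0537) and of Tnnc1 under dexamethasone (0.80, adjusted p = 0.0622) against MC903 ears, and those of Ampd1, Neb, Ryr1 and Ttn in dexamethasone ears against vehicle ears. With it Pgam2 (0.74, adjusted p = 0.0481) and Tnnt1 (0.79, adjusted p = 0.0399) passed under dexamethasone against MC903 ears, and both also passed with only these 2 groups fitted, Tnnt1 in DESeq2 too. Leaving out each mouse gave 0 to 1 higher members in RGRN-305 ears against dexamethasone ears. There Mylpf ran from -0.28 to 0.012, Tnni2 from -0.22 to 0.025, Mybpc2 from -0.31 to 0.24, Myh7 from -0.25 to 0.22, Tnnt1 from -0.26 to 0.0037, Pvalb from -0.62 to 0.81 and Casq1 from -0.0053 to 0.23. Tnni1 ran from -0.11 to 0.088 in RGRN-305 ears against vehicle ears, and in dexamethasone ears against vehicle ears Myh4 ran from -0.56 to 0.050 and Tnnc1 from -0.34 to 0.0045. Leaving out a mouse gave 21 to 28 lower members in dexamethasone ears against vehicle ears, and the other settings with the adjusted p alone 22 to 32. In the other settings that kept the adjusted p alone, 26 to 32 members were higher in RGRN-305 ears and 30 to 34 in dexamethasone ears against MC903 ears. DESeq2 gave 32 under RGRN-305, where Myh2, Actn3, Xirp2 and Smpx also passed, as they did with total counts without TMM. Without a filter on low counts the calls of Acta1 and Trdn under RGRN-305 and of Casq1 and Smpx under dexamethasone against MC903 ears were lost, and leaving out the 2 libraries of lowest depth ended those of Acta1, Trdn and Casq1. In these members the adjusted p lay between 0.0539 and 0.0717. Members of few reads, such as Actn3, Mybpc2 and Myh7, limit what this depth can show.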
